A study of Mus musculus with 29 samples.

Results

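Cxcl13, a CXC chemokine, was followed in mouse brain and blood after stroke. The gene was chosen by its measured level in microglia at day 14 against day 2, so its microglial values are given as a description and carry no test. It is 1 gene of 19704, 27514 and 16623 in the young brain, aged brain and blood tables. Of 106977 cells in all, 226 had Cxcl13 above 0. Of these, 163 were among the 24707 cells annotated by the authors as microglia (code Mg). Summed over cells, 11 of the 29 libraries held more than 1e-6 counts of Cxcl13, and another had 2 cells with traces below that. The values are expected counts, which need not be whole, and 13 of the 226 cells held less than 0.5.

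CXCL13 is the chemokine that draws B cells and follicular helper T cells, through the receptor CXCR5, into the follicles of lymph nodes and spleen. In lymphoid tissue it is made mainly by follicular dendritic and other stromal cells under the control of lymphotoxin and TNF. It also appears where B cells gather in chronically inflamed organs, the brain and its coverings included. Microglia are the resident macrophages of the brain, and border-associated macrophages live in its meninges and around its vessels.

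All mice were C57BL/6J. Stroke was made by occluding the middle cerebral artery for a limited time, and controls had sham surgery. Young mice were males of 8 to 10 weeks, and their brains were taken 2 days after sham surgery, 2 days after stroke and 14 days after stroke, in 4 libraries each. Blood of young mice was taken at those times in 4, 4 and 3 libraries. Aged mice were 17 to 20 months old, and only their brains were profiled. They comprised 2 sham libraries (a male and a female) and 3 stroke libraries (a male and 2 females) taken after 2 days, with a single female stroke library after 14 days. Each brain library pooled several hemispheres, was digested with papain in the presence of actinomycin D, Brilliant Blue G and AP-5, and was sorted by CD45 and Ly6c for leukocytes, microglia and endothelial cells. Each blood library pooled mice and was depleted of red cells. Drop-seq then counted transcripts per cell by barcoded beads. All sham libraries are from day 2, so a comparison of day 14 with sham also spans the longer time. Age cannot be told apart from the library series, the gene table and, in part, sex.

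Brain libraries summed to between 819438 and 5855047 counts over 1143 to 5121 cells. Of 106624 barcodes, 345 (0.324%) occurred in more than 1 library, and 3 of those belonged to a cell with Cxcl13. In the young libraries the 9 microglial markers summed to 20956 to 29902 CPM (counts per 1e6 counts of the type in the library) in sham microglia and to 14405 to 18948 CPM at day 14, with none at 0. Stroke day 2 replicate 3 stood apart. It had only 58 cells of code Mg, and their microglial markers summed to 820 CPM, while the highest of the day 2 libraries had 17346 CPM. Cxcl13 was at 0 with and without that library.

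Cxcl13 lies on chromosome 5 at chr5:95956951-95961068 on the plus strand of GRCm38 (GENCODE M21, ENSMUSG00000023078.6). It is a protein-coding gene with 1 transcript of 4 exons. No annotated gene overlaps it, and the only neighbour within 50 kb is the predicted gene Gm7993, so its reads had no overlapping gene to be shared with. The 250 bases before its start in RefSeq (GRCm38.p6, chr5:95956689-95956938, plus strand) are shown because the transcript went from undetected to present. Capitals mark the word TATAAA, which many promoters hold where the general transcription machinery binds.
Cxcl13: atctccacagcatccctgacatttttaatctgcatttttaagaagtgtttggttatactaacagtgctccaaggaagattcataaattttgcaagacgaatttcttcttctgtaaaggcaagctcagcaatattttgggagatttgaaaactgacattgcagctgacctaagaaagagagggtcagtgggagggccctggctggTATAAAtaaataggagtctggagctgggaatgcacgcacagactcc
The TATAAA begins 46 bases before the start on the plus strand, and 12.4% of 32851 promoter windows hold that word on either strand. A loose pattern of the NF-kB type (GGG and CC with any 5 bases between them) matched 63 bases before the start on both strands, without overlap with TATAAA. It matched in 45.8% of windows. The STAT-type pattern TTCNNNGAA, searched on both strands, was not among these letters and is in 7.02% of windows. Such matches describe the letters and do not locate a bound site.

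In young mice Cxcl13 was undetected in microglia of sham brains and at stroke day 2, and was present in all 4 day 14 libraries. No count was found in 10874 sham microglia, for which 3 counts over the group would be 0.536 CPM and 3 cells would be 0.0276%. None was found in 2693 day 2 microglia, for which the limits are 0.681 CPM and 0.111%. At day 14, replicates 1 to 4 held 76.9, 30.3, 46.7 and 36.9 CPM (mean 47.7 ± 20.6, SD, n = 4). No day 14 library overlapped the other groups. Pooled over the group, the level was 52.0 CPM (exact Poisson 95% interval 46.5 to 58.0, counting error only).

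Against the floor of 3 counts, the pooled day 14 level was at least 76.4-fold above day 2 and at least 97.0-fold above sham. Here and below, such bounds leave out the counting error of the higher group. The first bound rests on the depth of day 2 replicate 4 and is 28.8-fold without it. In the edgeR fit of all 10145 genes, 3.47% were called higher at day 14 than at day 2, from which nothing is read for Cxcl13 itself.

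**Figure D1:**
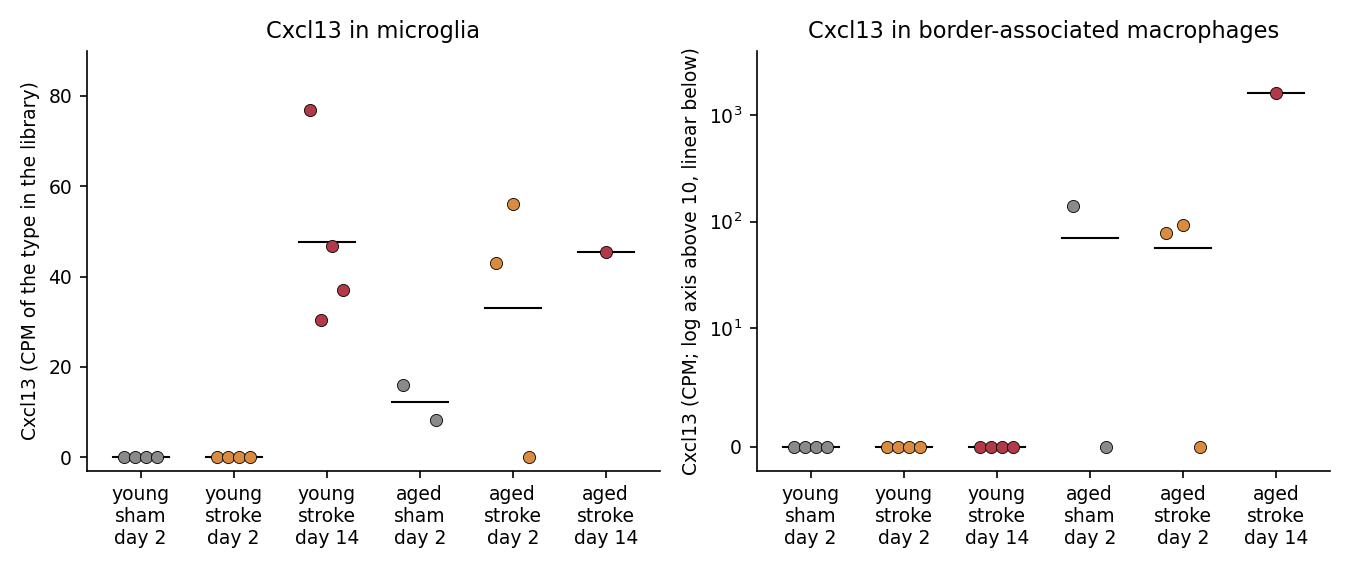
Cxcl13 level in CPM of the cell type, 1 point per brain library and a line at the group mean, in microglia (left, linear axis) and border-associated macrophages (right, log axis above 10 CPM and linear below). The 4 young day 14 microglial libraries lie between 30.3 and 76.9 CPM and every young sham and day 2 library at 0, while among macrophages only aged libraries are above 0.

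Few microglia carried the transcript. Cells above 0 were 20 of 904, 10 of 957, 21 of 684 and 38 of 2625 in day 14 replicates 1 to 4, a mean share of 1.94% ± 0.893 (SD, n = 4). Pooled, 89 of 5170 cells (1.72%, exact binomial 95% interval 1.38 to 2.11%) were above 0. Replicate 3 had the highest share and replicate 2 the lowest. The median cell held 2042, 593, 1939 and 433 counts in these libraries, so the deeper libraries, 1 and 3, also had the higher shares. After each cell was thinned to 400 counts, the shares were 0.766, 0.672, 1.22 and 1.05%, and replicate 1 was no longer among the highest. In endothelial cells, a type not known for Cxcl13, 2 of 1610 cells (0.124%) were above 0.

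The counts were uneven between cells. Rounded to whole counts, 53 of the 89 microglia held 1 count, 34 held 2 or more, 19 of these 4 or more and 5 of these 10 or more, and 2 cells were under 0.5. Those 5 cells together held 53.2% of the microglial Cxcl13. A single cell of subtype Mg3 in replicate 1 held 119 counts, which is 1.99% of its 6001 counts and 36.7% of the group's microglial Cxcl13. Without that cell replicate 1 falls from 76.9 to 21.6 CPM and the group mean to 33.9 ± 10.6 CPM (SD, n = 4). The lower bounds then become 48.4-fold over day 2 and 61.5-fold over sham. Other CXC chemokines of the same microglia ranged widely in this respect. The 5 highest cells held 91.0% of the 15.5 counts of Cxcl3, 66.9% of Cxcl1 and 53.6% of Cxcl11, all of low total. For the ligands that could be tested the share was 38.6% of Cxcl9, 18.3% of Pf4, 14.2% of Cxcl14, 12.9% of Cxcl2, 10.5% of Cxcl10 and 2.75% of Cxcl16.

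**Figure D2:**
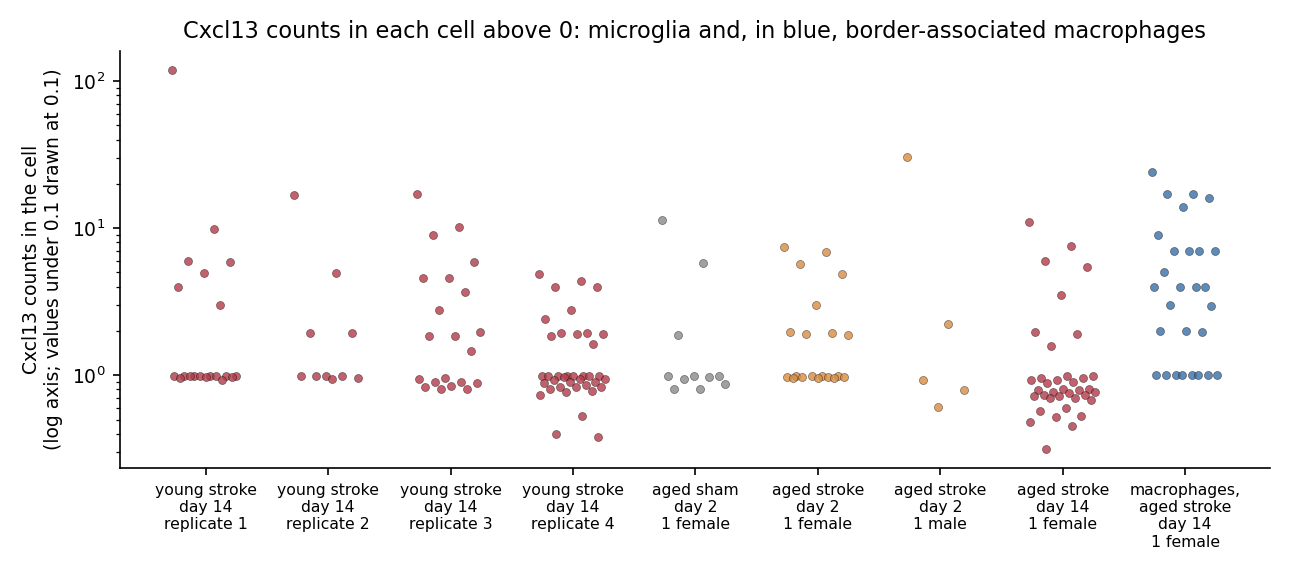
Cxcl13 counts (log axis) in each cell above 0, 1 point per cell, for libraries with at least 5 such cells; microglia in grey, orange and red and the aged border-associated macrophages in blue. Most microglia sit near 1 count, with a single cell at 119 in young day 14 replicate 1, whereas the macrophages spread up to 24.0.

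The authors divided microglia into subtypes Mg1 to Mg8, which are clusters of the same cells and may have used this gene, so the shares by subtype carry no test. Mg3 made up most of the young day 14 microglia and held 68 of the 89 cells, or 68 of 3415 Mg3 cells (1.99%, interval 1.55 to 2.52%). Mg6 had 10 of 584 (1.71%), Mg7 had 6 of 256 (2.34%) and Mg5 had 5 of 113 (4.42%, interval 1.45 to 10.0%). Leaving out 1 library gave 1.21 to 2.50% for Mg6 and 1.59 to 3.61% for Mg7. The Mg7 share fell to 0 without the 5% of cells with the most counts. No cell was above 0 among 321 of Mg1, 428 of Mg2 and 52 of Mg4. Thinned to 400 counts, Mg3 had 1.12%, Mg5 2.14%, Mg6 0.787% and Mg7 0.746%. Mg5 rests on 5 cells, and its interval covers the share of the other 3. The subtype label alone did not go with Cxcl13 in young mice. None of 133 Mg3 and none of 911 Mg5 cells at day 2 was above 0, and none of 93 Mg3 cells in sham. For Mg3 these numbers are small, since 3 of 133 cells would already exceed the day 14 share.

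**Figure D3:**
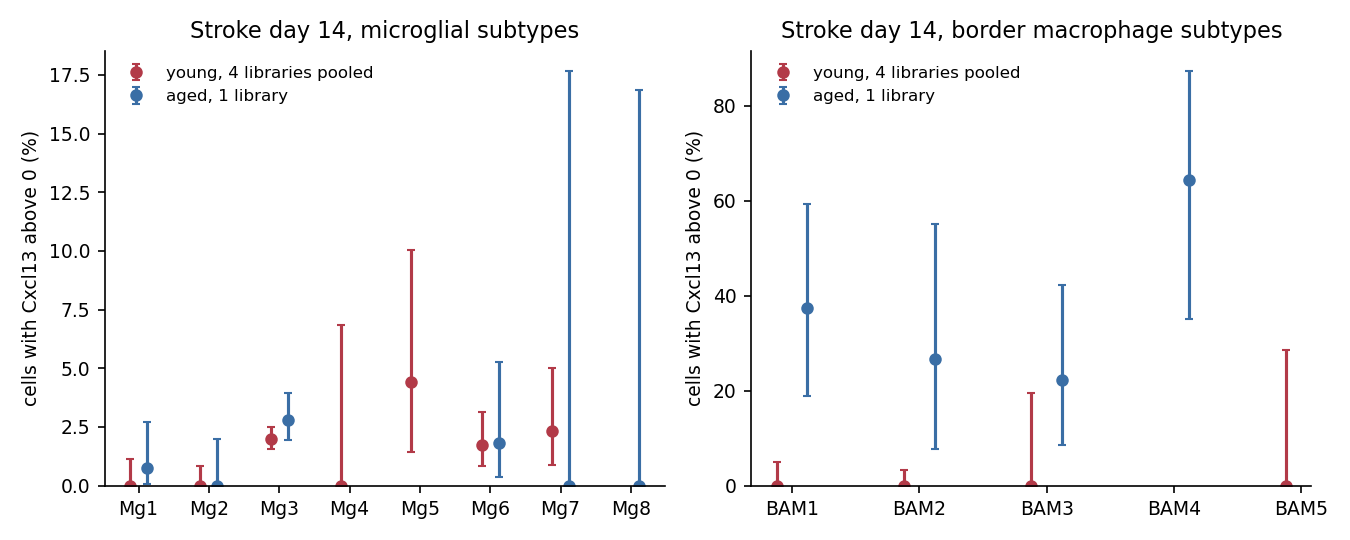
Share of cells with Cxcl13 above 0 at stroke day 14 (percent, points) with exact binomial 95% intervals (bars), by deposited subtype of microglia (left) and border-associated macrophages (right), for young libraries pooled and for the 1 aged library; subtypes with under 10 cells are not drawn. Among young microglia the points above 0 are Mg3, Mg5, Mg6 and Mg7, and every drawn macrophage point above 0 is aged.

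Other cells of the young day 14 brain held little Cxcl13. Microglia accounted for 98.3% of its counts and 89 of its 100 cells. Endothelial cells had 1.46 CPM from 2 of 1610 cells and monocyte-derived cells 0.574 CPM from 4 of 2898. A single cell each gave 6.07 CPM in 363 granulocytes, 1.93 CPM in 349 NK cells and 0.0868 CPM in 1712 dendritic cells. Border-associated macrophages had none in 214 cells, which allows up to 15.6 CPM and 1.40% of cells. Endothelial libraries averaged 2.69 ± 3.49 CPM (SD, n = 4), with 2 of 4 above 0. At day 2 endothelial cells, border-associated macrophages, dendritic cells, granulocytes, monocyte-derived cells and T cells were all at 0, and since these levels are part of how the gene was chosen, they carry no test.

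Free RNA in droplets can put a transcript of one type into another, so microglial markers were read in the same cells. In monocyte-derived cells the 9 microglial markers stood at 12.8% of their microglial level, and Cxcl13 at 1.10% of its own. In border-associated macrophages the markers stood at 14.3% and Cxcl13 at 0. Endothelial cells had the markers at 0.0837% and Cxcl13 at 2.80%, from the 2 cells above, and granulocytes had 3.45 and 11.7%, from 1 cell. The part of free RNA in these few counts was not tested further.

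Aged brains already held Cxcl13 in microglia without stroke. The aged male sham library had 8.29 CPM, from 3 counts in 1 of 329 cells, and the aged female sham library 16.0 CPM, from 11 of 2385 cells. Their mean was 12.2 ± 5.47 CPM (SD, n = 2), and the pooled level, 14.6 CPM (Poisson interval 9.83 to 21.0), was at least 27.3-fold above young sham. A single cell held 11.4 of the 29.4 pooled counts. At stroke day 2 the aged libraries had 56.0 CPM (male, 5 of 326 cells), 43.0 CPM (female 1, 20 of 956 cells) and 0 (female 2, 0 of 170 cells, which allows 13.7 CPM), a mean of 33.0 ± 29.3 (SD, n = 3). Pooled at 42.3 CPM, this was at least 62.2-fold above young day 2, a bound of 23.5-fold without young day 2 replicate 4. The male value leans on 1 cell with 30.6 counts. The aged day 14 library had 45.4 CPM (Poisson interval 34.7 to 58.3) from 37 of 1804 cells (2.05%, interval 1.45 to 2.82%), within the range of the 4 young day 14 libraries.

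Ordered by group mean, microglial Cxcl13 ran from young sham and young day 2 (both 0) to aged sham (12.2 CPM), aged day 2 (33.0), aged day 14 (45.4, 1 library) and young day 14 (47.7). Aged sham and aged day 2 overlapped, as female 2 at day 2 was at 0, and the top 3 groups overlapped too. Without the 1 cell with 119 counts the young day 14 mean was 33.9 CPM, below the aged day 14 library, which was not trimmed. The aged day 2 mean was not trimmed either, and 1 cell held 30.6 of the 35.1 counts of its male library. The trimmed young mean is therefore not set beside it. Aged groups are too small for a permutation test to reach a p under 0.05, and none was run. Aged sham had 12 microglia above 0 in all, some of them outside Mg1 and Mg3. There 4 of 161 Mg3 cells (2.48%) were above 0 against 3 of 1619 Mg1 cells (0.185%). In the aged day 14 library 32 of 1142 Mg3 cells (2.80%) were, and at aged day 2 the cells were spread over Mg4 (11 of 603), Mg3 (7 of 174), Mg5 (5 of 263) and Mg8 (2 of 148).

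By cell type and group, the highest Cxcl13 of the series was in border-associated macrophages of the aged day 14 library. There 28 of 83 cells (33.7%, interval 23.7 to 45.0%) were above 0, at 1591 CPM (Poisson interval 1358 to 1852). These 83 cells held 166 counts, or 67.5% of that library's Cxcl13, and its 1804 microglia held 60.5 counts. Rounded likewise, 20 of the 28 cells held 2 or more counts, 15 held 4 or more and 5 held 10 or more, up to 24.0. Thinned to 400 counts, 24.2% stayed above 0. By subtype they were 9 of 24 BAM1, 4 of 15 BAM2, 6 of 27 BAM3 and 9 of 14 BAM4 cells.

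This is 1 library of 1 sex, and no replicate check exists. In the other aged libraries the macrophages had 2 of 109 cells in sham and 6 of 103 at day 2, 2 of them under 0.5. Pooled, the aged sham macrophages stood at 102 CPM (Poisson interval 43.9 to 200), beside 14.6 CPM in microglia. At aged day 2 the macrophages stood at 81.0 CPM (interval 32.4 to 168), beside 42.3 CPM, all from these few cells. In young mice they had 0 of 587, 0 of 357 and 0 of 214 cells in sham, day 2 and day 14. The 7 border macrophage markers summed to 4518 CPM in the aged day 14 macrophages, with none at 0, and the microglial markers to 536 CPM. That border sum was low, below the macrophages of aged sham (6005 to 13416 CPM) and aged day 2 (8514 to 15187 CPM). Young macrophages had 3362 to 14721 CPM in sham, 9507 to 15966 CPM at day 2 and 6319 to 13141 CPM at day 14. In the aged day 14 macrophages with Cxcl13 the border markers summed to 5390 CPM and the microglial markers to 234 CPM, and in those without to 3636 and 848 CPM. The cells with Cxcl13 were the deeper ones, with a median of 1440 counts against 524. Monocyte-derived cells of the same library had 5 of 87 cells (5.75%) and 280 CPM, 3 of them in the 11 MdC5 cells. In blood, 1 monocyte and 1 NK cell at day 14 held 0.992 and 0.974 counts, and none was found in sham or day 2, where 3 counts would be 0.256 and 0.258 CPM.

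Genes whose microglial level ran most like Cxcl13 over the 18 brain libraries were sought among 5243 genes by the correlation of log2(CPM + 1). The 8 nearest were H2-Q7 (Pearson r 0.90, Spearman rho 0.88), Ly9 (0.89, 0.85), Mpeg1 (0.85, 0.85), H2-K1 (0.85, 0.82), C3 (0.83, 0.84), H2-M3 (0.83, 0.87), B2m (0.83, 0.84) and H2-D1 (0.82, 0.85). The points share library and depth, 9 of them are at 0 for Cxcl13, and they fall into groups, so no p is given. Within the young libraries, which carry the contrast by which Cxcl13 was chosen, r was 0.88 (H2-M3) to 0.98 (C3). Within the aged libraries r was lower for each gene, from 0.49 (B2m) to 0.84 (H2-K1). H2-K1, H2-D1, H2-Q7 and H2-M3 encode class I heavy chains, and B2m encodes their common light chain. H2 genes are near copies of each other, so the split of reads between them is uncertain.

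H2-Q7 averaged 4.50, 16.9 and 221 CPM in young sham, day 2 and day 14 microglia, and 46.7, 50.8 and 166 CPM in the aged groups. C3, the central complement component, averaged 0.350, 0 and 24.1 CPM in the young groups and 2.80, 1.44 and 11.3 CPM in the aged. By group means both were higher in aged than in young sham, but for C3 the libraries overlapped. Mpeg1, a macrophage pore-forming protein, had a high base, with 745, 640 and 1751 CPM in young and 1065, 819 and 1642 CPM in aged microglia. Ly9, which encodes a receptor of the SLAM family, averaged 24.7 CPM at young day 2 and 93.7 CPM at day 14. Since the 8 genes were chosen for a course like that of Cxcl13, their courses carry no test here.

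**Figure D4:**
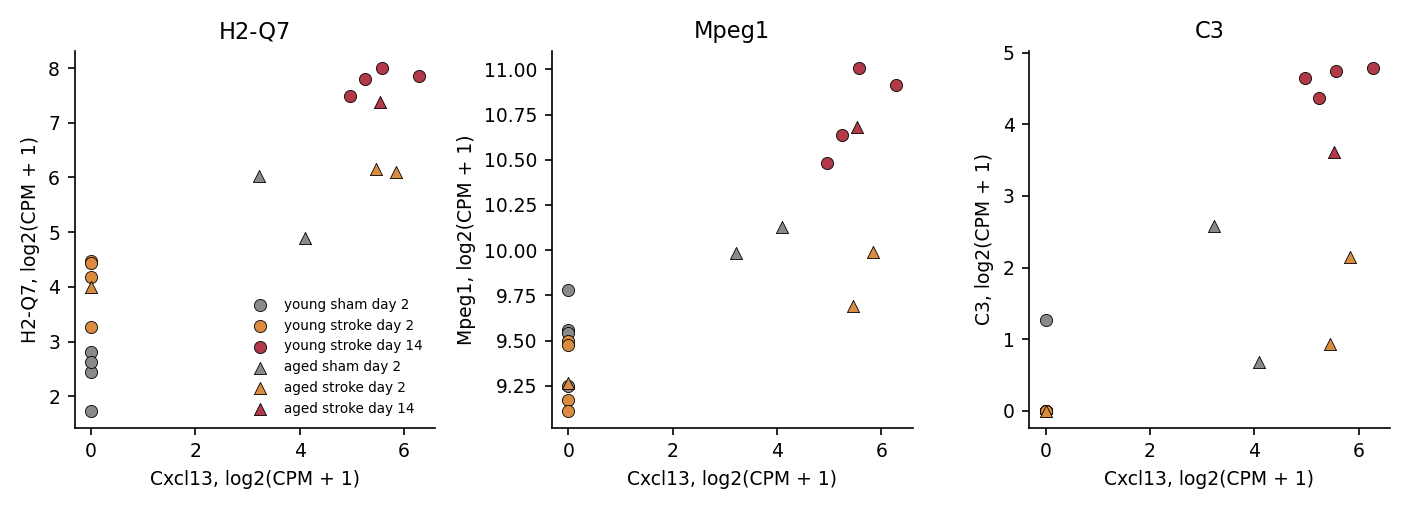
Level of H2-Q7, Mpeg1 and C3 against Cxcl13 in microglia, both as log2(CPM + 1), 1 point per brain library; circles are young, triangles aged, and colours give sham (grey), stroke day 2 (orange) and stroke day 14 (red). Young day 14 libraries sit at the top right and libraries without Cxcl13 stand at 0 on the x axis, so the relation rests on groups of libraries.

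Other CXC ligands were already higher than sham at day 2, when Cxcl13 was at 0. Of 14 listed besides Cxcl13, 11 were in the young brain table and 6 passed the filter on low counts in microglia. Cxcl9, at 0 in sham and at most 4.25 CPM at day 2, passed only through its day 14 libraries. It could hardly have been called lower at day 14, so its call there is weak evidence. At day 14 against day 2, 2 of the 6 were higher, Cxcl9 itself and Cxcl14, and none lower. Beside them, 3.47% of all 10145 genes were higher and 3.46% lower (6.93% in all). Their median log2 change was 1.33, beside 0.10 over all genes. Against sham all 6 were higher at day 14 (10.6% of all genes were higher), of which Pf4 lost its call in 11 of 20 alternative settings (adjusted p up to 0.123), with a median of 4.94 when Cxcl9, at 0 in sham, is put at its bound, beside -0.04 over all genes. At day 2 against sham 4 of the 6 were higher (15.7% of all genes), namely Cxcl9, Cxcl10, Cxcl14 and Cxcl16, with a median of 3.17 by the same bound, beside -0.05. The day 2 call on Cxcl9 is lost without day 2 replicate 4, which held 11.7 of its counts (adjusted p = 0.179), and among cells of at least 800 counts (adjusted p = 0.115). The 3 comparisons share their libraries. Over all genes they called 352 higher and 351 lower, 1071 and 473, and 1588 and 1594. With library size in place of TMM scaling these become 202 and 955, 670 and 2755, and 1273 and 2118. DESeq2 gave 1145 and 841 for day 14 against sham and 1224 and 2185 for day 2 against sham.

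Cxcl9, a ligand of CXCR3, had 20.3, 21.1, 43.6 and 13.2 CPM at day 14 and 0.903, 0, 0 and 4.25 CPM at day 2, and like Cxcl13 it was at 0 in the 4 young sham libraries. In the aged sham libraries it had 2.76 and 0.606 CPM, from 1 count in 1 cell each. In aged stroke it did not run with Cxcl13. At aged day 2 it had 0 (male), 0.929 (female 1) and 0 CPM (female 2), and at aged day 14 7.7e-12 CPM. Cxcl13 had 56.0, 43.0, 0 and 45.4 CPM in these libraries. Cxcl9 passed the filter only through its day 14 libraries, so its gap and p between the stroke times are weak evidence. The young stroke groups did not overlap for Cxcl9, and day 14 exceeded day 2 by log2 3.51 ± 0.70 (SE, edgeR adjusted p = 0.0141). That call is lost when day 2 replicate 1 is left out (adjusted p = 0.0736), and also when the 5% of cells with the most counts are (adjusted p = 0.0577). Cxcl14 had 44.8, 35.2, 73.6 and 30.6 CPM at day 14 and 13.9, 21.0, 69.3 and 9.33 CPM at day 2. The groups overlapped through day 2 replicate 3, whose 58 cells carried few microglial markers. Its rise of log2 1.85 ± 0.46 (SE, edgeR adjusted p = 0.0277) was kept in 10 of 20 alternative settings.

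Cxcl10 and Cxcl16 had risen by day 2. Cxcl10, the interferon-induced CXCR3 ligand, rose by log2 3.81 ± 0.83 (SE, edgeR adjusted p = 0.00466) at day 2 against sham, and its change from day 2 to day 14 was 0.56 ± 0.73 (SE), not past the threshold. Cxcl16, the CXCR6 ligand, rose by log2 2.46 ± 0.30 (SE, edgeR adjusted p = 0.000106) at day 2 and differed by -0.01 ± 0.29 (SE) between the stroke times.

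Of 26 genes of the CXCL13 axis and lymphoid tissue signals, 23 were in the table and 12 passed the filter. At day 14 against day 2 none of the 12 was called by edgeR, beside 6.93% of all genes. Their median log2 change was 0.25, beside 0.10, and it was -0.02 with library size alone. The nearest were Nfkb2 (log2 1.49 ± 0.53, SE, edgeR adjusted p = 0.109) and Relb (0.95 ± 0.36, SE, adjusted p = 0.136), both of the non-canonical NF-kB pathway that lymphotoxin uses; these 2 had an unadjusted p under 0.05 (0.0138 and 0.0204), and DESeq2 called none. Day 14 against sham gave 2 higher, beside 10.6% of all genes, Tnf (log2 2.32, edgeR adjusted p = 0.0403) and Relb (1.13, adjusted p = 0.0383). It also gave 2 lower, beside 4.66% of all genes, Tnfrsf13b (-0.83, adjusted p = 0.0485) and Tnfrsf17 (-1.25, adjusted p = 0.0484), receptors for B cell survival factors. Each of these 4 lost its call in 8 to 15 of 20 alternatives. The 3 receptors that bind CXCL13 or are held to do so, Cxcr5, Cxcr3 and Ackr4, were not testable, and Cxcr5 was above 0 in 7 of 5170 day 14 microglia.

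Other groups of microglial genes also changed between the stroke times. From day 2 to day 14, 11 of 20 genes of damage-associated microglia were higher, for example Apoe, the lipid carrier (log2 4.85 ± 0.58), Igf1, a growth factor (4.19 ± 0.44), and Itgax, an integrin (3.14 ± 0.42). So were 6 of 14 interferon response genes, 4 of 11 tested antigen presentation genes (B2m, H2-K1, H2-D1 and Tap1, the first 3 of which are also among the 8 genes picked for a course like that of Cxcl13, so that their count is no independent evidence) and 6 of 11 lipid handling genes. Of 12 proliferation genes 11 were lower, and none of 12 homeostatic genes was called. These shares stand beside 3.47% of all genes higher and 3.46% lower, and medians of 1.38, 1.08, 1.14, 1.26, -3.01 and 0.35 for the 6 lists in that order beside 0.10.

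Microglia with Cxcl13 were then compared with the other microglia of their own library, in the 3 young day 14 libraries with at least 20 such cells (20, 21 and 38 cells against 884, 663 and 2587). Of 7285 genes, 18 were called (0.247%), 3 higher and 15 lower, and 479 had an unadjusted p under 0.05. The median log2 change over all genes was -0.23, and the changes below stand beside that value. The p-values of this comparison lean on a spread pooled over genes. A very small p is therefore no measure of how alike the 3 libraries were. The cells with Cxcl13 were the deeper ones, with medians of 2734, 3270 and 610 counts against 2027, 1919 and 432. The comparison is paired within libraries, and with no replicate block edgeR called 0 genes, with 257 at an unadjusted p under 0.05. DESeq2 called 2, and edgeR called 2 without replicate 1 and 4 without replicate 3.

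Ccl5, a chemokine for T cells and monocytes, was higher in microglia with Cxcl13. Its level was 534, 2420 and 936 CPM with Cxcl13 and 182, 346 and 171 CPM without in replicates 1, 3 and 4 (log2 2.11 ± 0.19, SE, edgeR adjusted p = 1.00e-24). Much of this lay in single cells, which held 64.4, 73.0 and 49.8% of the Ccl5 of the cells with Cxcl13. Without the 1 cell with the most Ccl5 the levels were 205, 689 and 482 CPM, still above the cells without in 3 of 3 libraries, by little in replicate 1. By detection, Ccl5 was above 0 in 35.0, 47.6 and 26.3% of cells with Cxcl13 and in 17.1, 20.5 and 7.54% of the others. At a common 400 counts these were 14.1, 23.1 and 18.4% against 5.67, 7.74 and 5.60%. T cell markers summed to at most 2.91 CPM in the cells with Cxcl13, with 5 to 7 of 7 at 0. In replicate 1 neutrophil markers summed to 126 CPM with Cxcl13 and 14.1 without, and monocyte-derived markers to 128 and 106 CPM. In replicates 3 and 4 neither sum was higher with Cxcl13. Doublets were not called, so admixture of other cells was not tested.

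Ccl5 can also be read in libraries that did not enter the fit. In young day 14 replicate 2, 3 of 10 cells with Cxcl13 had Ccl5 (30.0% against 11.2%), at 1228 CPM against 261, of which 1 cell held 91.5%. In aged day 14 microglia it was 8 of 37 cells (21.6% against 5.09%) and 291 CPM against 76.8. In aged day 2 it was 5 of 20 cells (25.0% against 5.66%) in female 1 and 2 of 5 (40.0% against 10.3%) in the male. The CPM in these was 223 against 208 and 115 against 246, so there the share of cells was higher with Cxcl13 and the level was not, or barely. In aged female sham none of 11 cells had Ccl5, against 0.842% of the others. The aged day 14 macrophages had Ccl5 in 3 of 28 cells with Cxcl13 and in 0 of 55 without.

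**Figure D5:**
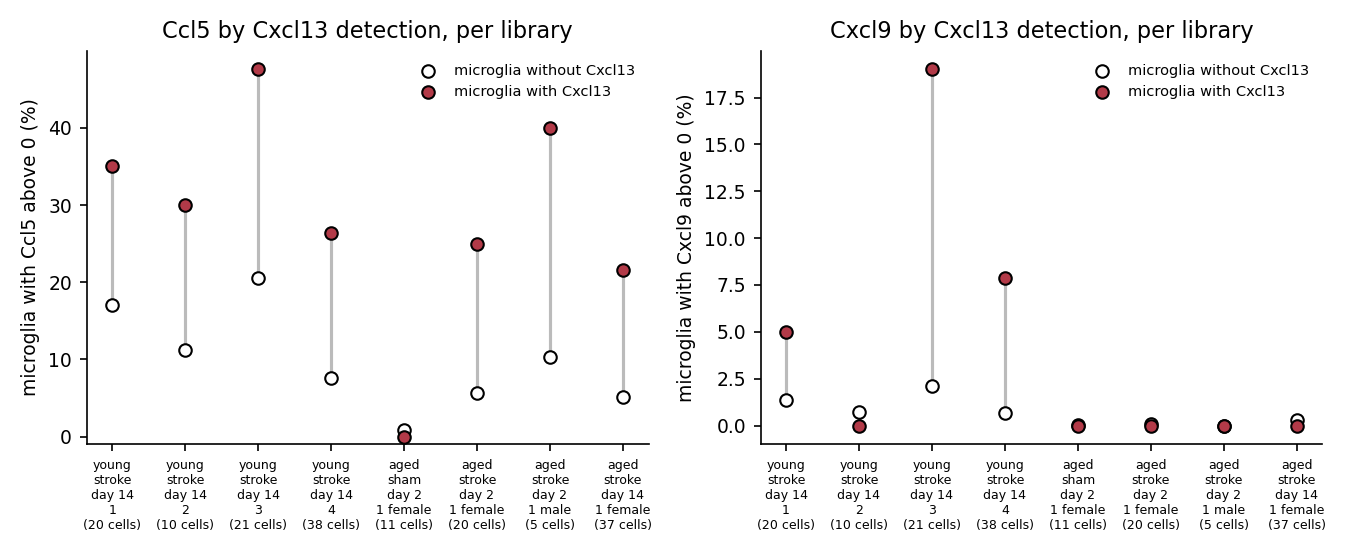
Percent of microglia with Ccl5 (left) or Cxcl9 (right) above 0, among cells with Cxcl13 (red) and without (white), 1 pair of points per library with at least 5 cells with Cxcl13; the number of those cells is under each library. For Ccl5 the red point is above the white one in the 7 stroke libraries and not in the aged sham library, and for Cxcl9 it is so in young replicates 1, 3 and 4.

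Cxcl9 was the other named gene higher with Cxcl13, at 45.0, 393 and 75.3 CPM against 19.6, 27.8 and 12.1 (log2 2.81 ± 0.48, SE, edgeR adjusted p = 8.38e-06). It rests on replicate 3. Without that library the change is log2 1.40 and not called, the Cxcl9 of replicate 1 lies in 1 cell, and replicate 2 had none in its 10 cells with Cxcl13. The remaining higher gene, Igf2bp3, was under the level set for naming and is named here after its value was seen. Cxcl9 was the only CXC ligand called of 6. None of 14 interferon response, 20 damage-associated or 11 axis genes was, beside 0.247% of all genes, so these lists are too short for a count of 0 to tell them from other genes. Of the 8 genes that followed Cxcl13 across libraries, none was called between cells (H2-Q7 log2 0.81 ± 0.23, SE, adjusted p = 0.0969).

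Lower with Cxcl13 were Apoc1 (log2 -1.43), Glul (-1.29), Ier5 (-1.24) and Ivns1abp (-1.23), with edgeR adjusted p between 0.000741 and 0.0102. These calls were lost in 6, 5, 6 and 9 of 13 alternative settings. On the deposited values, before rounding, Apoc1 in replicate 4 was 229 CPM with Cxcl13 and 228 without, so it was lower in 2 of 3 libraries, and the other three genes were lower in 3 of 3. Outside the fit, Apoc1 was higher with Cxcl13 in young replicate 2 (599.9 against 315 CPM) and in aged day 14 microglia (75.2 against 29.1 CPM), where 1 cell held 86.7 and 77.4% of the Apoc1 of the cells with Cxcl13. Ier5 was higher in young replicate 2 (316 against 260.0 CPM) and in aged female sham (695 against 547 CPM), where 1 cell held 37.5 and 25.5%. Glul and Ivns1abp were lower with Cxcl13 in all 5 microglial libraries outside the fit. Apoc1 is a small apolipoprotein and Glul is glutamine synthetase. P2ry12, the ADP receptor of resting microglia and the only one of 12 homeostatic genes called (0.247% of all genes were), had 299.9, 722 and 889 CPM against 665, 1061 and 1377 (log2 -1.0 ± 0.19, SE, edgeR adjusted p = 0.000166). P2ry12 was also lower in the 5 libraries outside the fit, for example 399 against 795 CPM in young replicate 2 and 1240 against 1556 CPM in aged day 14. P2ry12 was above 0 in 60.0, 66.7 and 36.8% of cells with Cxcl13 in replicates 1, 3 and 4, against 58.9, 64.9 and 42.7% of the others. These shares take no account of the greater depth of the cells with Cxcl13. At 400 counts it was 16.0, 19.5 and 23.4% against 23.6, 30.9 and 35.2%. The call on P2ry12 is lost in 4 of 13 settings, which are DESeq2 (adjusted p = 0.982), no replicate block (0.999), leaving out replicate 1 (0.498) and cells of at least 800 counts (0.21). Library size in place of TMM scaling moves the median log2 change of all genes by 0.22, from -0.23 to -0.0023. With it 11 genes are called higher and 7 lower, in place of 3 and 15.

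On the receptor side, Cxcr5 was read in B cells. In blood B cells it stood at 269, 251, 325 and 281 CPM in sham (mean 281 ± 31.4, SD, n = 4) and at 226, 145, 241 and 244 CPM at stroke day 2 (214 ± 46.6, SD, n = 4). These groups did not overlap, and the exact two-sided permutation p was 0.0286 (adjusted over the 2 contrasts 0.0571), the smallest the design allows. At day 14 it was 263, 409 and 435 CPM (369 ± 92.3, SD, n = 3), overlapping sham, with an exact permutation p of 0.229. B cells were 30.9 to 50.3% of sham, 13.8 to 53.4% of day 2 and 32.9 to 50.1% of day 14 blood cells.

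In the young brain, B cells were 0.223 to 3.22% of the cells of a library, below the blood shares in every library. At day 14 the brain held 141 B cells, of which 26 (18.4%) had Cxcr5, with 432, 0, 454 and 483 CPM in replicates 1 to 4. At day 2, 7 of 70 and in sham 6 of 235 brain B cells had it, nearly all in replicate 3 of each group, and several libraries had 10 to 30 B cells, so the groups were not compared. The aged day 14 library, with the highest macrophage Cxcl13, had 6 B cells. The sort fixes which cells were kept, and B cells were not counted in tissue.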

How the data were processed

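Brain and blood leukocytes, microglia and endothelial cells of young and aged mice were profiled by Drop-seq. The deposited tables hold expected counts per gene and cell, estimated counts that need not be whole. The submitters' processing notes name Seurat and the mm10 build, and no other step is given in the sources used here. A deposited table of cells gives the authors' cell type and subtype codes, with mitochondrial content in percent; the authors' annotation was used as it stands. Doublets were not called, and leaving out the 5% of cells with the most counts served as an alternative.

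Gene, members and gene lists were chosen with earlier results of these data known. For each library and cell type the counts were added up and given as CPM. A cell counted as positive above 0, with 0.5 as an alternative. A floor is 3 counts or 3 cells, and fold bounds against it leave out the counting error of the higher group. Intervals are exact at 95% and cover counting error only. Thinned shares draw each cell down to 400 counts and leave out shallower cells. Summed counts were rounded to whole numbers and tested with edgeR 4.0.16 (R 4.3.3, TMM scaling, filterByExpr, quasi-likelihood test, Benjamini-Hochberg at 0.05) on all 12 young microglial libraries, without a replicate block. The same test with a library block compared cells with and without Cxcl13, in libraries with at least 20 such cells. DESeq2 1.42.0 was an alternative. Single values were compared by exact permutation (scipy 1.17.1). The scripts were tested on simulated data. Nothing in the labels says that libraries of one group are separate cohorts beyond their pooled mice. P-values between groups thus refer to the spread between these libraries. Those between cells with and without Cxcl13 lean on a spread pooled over genes and reflect the spread between libraries little.

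Named genes are Cxcl13, members of the fixed lists, the 8 genes with the highest Pearson r among those with at least 20 CPM in young day 14 microglia, and, between cells with and without Cxcl13, up to 10 higher and 5 lower called genes with at least 50 CPM and the same direction in every library. The last 2 rules leave out predicted, mitochondrial, ribosomal, haemoglobin, immunoglobulin and T cell receptor genes. A lower gene that the rule names is not reported here. A likeness needed at least 50 microglia in a library. Cxcr5 in B cells of blood was compared between each stroke time and sham.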

Additional observations from a re-analysis of the deposited data

Results flagged for a closer look

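Dixon's test for a sample far from the others was applied to 44 sets of 4 young libraries, and 5 sets had such a sample, where chance gives about 1 in 20; that rate does not hold for the C3 and Cxcl14 sets, where the other libraries are tied at 0. C3 in young sham microglia was 1.40 CPM in 1 library and 0 in the other three. H2-D1 at young stroke day 2 was 1436 CPM in replicate 3, the library with 58 microglia, and the nearest library had 797 CPM. Cxcl14 in young sham microglia was 0.614 CPM in replicate 1 and 0 in the other three. Cxcl16 in young sham microglia was 37.8 CPM in 1 library, below the nearest at 60.8 CPM. Cxcl2 at young stroke day 14 was 366 CPM in replicate 1, with the nearest library at 78.3 CPM.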

How the results depend on the processing

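Alternatives were tabulated for called CXC ligands and axis genes and, between cells, for Ccl5, Cxcl9, P2ry12, Apoc1, Glul, Ier5 and Ivns1abp. They were not tabulated for the other genes named here. None of the tabulated log2 changes changed sign. Medians of gene lists did, and so did the balance of higher and lower calls: with library size alone the axis median became -0.02 for day 14 against day 2 and -0.06 against sham. For day 14 against day 2 the 703 called genes became 1157 with library size alone and 426 with only these 2 groups in the fit, and leaving out a library gave 276 to 735 (379 without day 2 replicate 1, 276 without day 2 replicate 4, 426 without day 14 replicate 1 and 440 without day 14 replicate 4). For day 14 against sham the 1544 became 3425 with library size alone and 791 to 2573 without a library (874, 842 and 791 without sham replicates 2, 3 and 4, 894 and 2573 without day 14 replicates 1 and 4). For day 2 against sham leaving out a library gave 2094 (day 2 replicate 4) to 3524. Library size alone moves the median of all genes by -0.29, -0.45 and -0.17 (log2) in these comparisons. With a replicate block the calls were 512, 1666 and 3129, and the axis genes called against sham fell to 1 higher and 1 lower. The r of deviations ran from -0.29 to 0.55 over 12 pairs of libraries with the same number and from -0.54 to 0.39 over other pairs; not every same-number pair was above 0.1, so the numbers were not taken to pair libraries. For Cxcr5 in blood B cells the paired exact permutation p was 0.125 at day 2 and 0.5 at day 14, where 0.125 and 0.25 are the smallest possible.

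Between microglia with and without Cxcl13, the 18 calls became 2 with DESeq2, 128 with no filter on low counts, 0 with no replicate block and 2 to 23 without a library. The planned versions with at least 800 counts, without the top 5% of cells and in Mg3 alone left 1 library and gave no value. Versions with at least 10 cells, chosen after seeing the data, gave 8 in all cells, 5 at 800 counts, 32 without the top 5% and 38 in Mg3, and adding 2 aged libraries gave 57. Ccl5 kept its call in 12 of 13 settings, Cxcl9 in 11 and P2ry12 in 9. Shares moved to 3.24% (Mg6, young day 14) and to 4.02% and 0 (Mg3 and Mg6, aged day 14) at 800 counts, and to 0 (Mg7, young day 14) without the top 5%. The young day 14 mean level was 38.0 to 53.5 CPM without a library. For Cxcl13 in other cell types edgeR gave no value, since the gene failed the filter on low counts. Where a cause is not named it was not tested. Depth limits the share of cells, since 53 of 89 young day 14 microglia held 1 count after rounding.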
